A study of Phanerodontia chrysosporium with 8 samples.

Results

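Fruiting bodies of the white-rot fungus Phanerodontia chrysosporium that had begun to shed spores were compared with its vegetative mycelium over all 13602 gene models in the files. The comparison takes the 3 fruiting body and the 3 mycelium libraries, 6 of the 8 in the series, chosen by the stage in their titles. The other libraries come from young fruiting bodies (n = 2), the initials that precede the fruiting body. They enter here through the filter on low counts, the scaling and the shared estimate of spread, and as values beside a result. Of the models, 12510 had enough reads to be tested and 1092 did not.

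All libraries are polyadenylated RNA of strain RP-78, called Phanerochaete chrysosporium in the labels, with no mutation or drug in any group. Cultures grew in darkness on cellophane over nutrient agar for 7 days at 37 °C and were then moved to a moist chamber at 25 °C in weak light to fruit. The mycelium is the hyphal mat of such plates. The labels do not say whether it was taken before the move, so the effects of stage and of the changed warmth, light, humidity and culture age cannot be told apart. The libraries of a stage are described as biological replicates, without detail on separate plates, and p-values measure the spread between them.

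Phanerodontia chrysosporium is known as a degrader of lignin, which it attacks as mycelium with secreted peroxidases. Like other basidiomycetes it fruits when hyphae gather into a tissue, here a flat crust, whose surface carries basidia. Meiosis takes place in the basidia, and each then bears spores that are shot into the air. The files give each model a JGI protein ID of this species and no gene name or product, so no model below is assigned to these processes, and the stage could not be checked against marker genes. IDs are printed for a few models only.

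Depth was 17018503, 35837246 and 20071680 unique reads in mycelium replicates 1, 2 and 3. The fruiting bodies had 17573655 reads in replicate 1, 24580228 in replicate 2 and 16144543 in replicate 3. Replicate 3 was unlike its stage before any comparison with mycelium. Its log2 level differed from that of replicate 1 by at least 2-fold in 3706 of the 12510 models (29.6%) and from that of replicate 2 in 2836 (22.7%), whereas replicates 1 and 2 differed so in 657 (5.25%). The mycelium pairs differed so in 450 to 962 models (3.6 to 7.69%). Replicates 1 and 3 were run on a flowcell with no other library, and replicate 2 on the flowcell of every mycelium library. Results are therefore given for each fruiting body library beside the stage.

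Fruiting bodies differed broadly from mycelium. In them, 2296 models were higher than in mycelium and 1681 lower, together 31.8% of those tested (18.4% higher and 13.4% lower; quasi-likelihood test of edgeR, p below 0.05 after Benjamini-Hochberg adjustment), and such models are described as called. With fruiting body replicate 3 left out the split was 3020 rises and 3079 falls, and falls then slightly outnumbered rises. Other scaling of the libraries narrowed the excess of rises. Upper-quartile factors gave 1987 rises and 1743 falls, and DESeq2 size factors in edgeR gave 2105 and 1782. Most changes were moderate. Of the rises, 878 were below 2-fold, 834 between 2- and 4-fold, 409 between 4- and 16-fold, 116 between 16- and 64-fold and 59 at or above 64-fold. Of the falls, 366 were below 2-fold, 877 between 2- and 4-fold, 391 between 4- and 16-fold, 39 between 16- and 64-fold and 8 at or above 64-fold. Models changed at least 4-fold thus numbered 584 upwards (4.67% of those tested) and 438 downwards (3.5%). Over all tested models the median log2 fold change was 0.05, and -0.02 with upper-quartile factors. The median size of a change, either way, was 0.56 on the log2 scale.

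A stricter test, against a change of 2-fold rather than against none, called 595 models higher and 420 lower (edgeR glmTreat, adjusted p below 0.05). This test was added after the data had been seen. Of the 2296 called rises, 2244 had all 3 fruiting body libraries above all 3 mycelium libraries, and of the 1681 called falls 1674 had them all below. Lack of overlap was commoner than a call, with 3207 models (25.6%) wholly above and 2623 (21%) wholly below, beside the 18.4 and 13.4% called. A fitted change of at least 4-fold was not called in 54 models. In bulk tissue, fewer cells of a type and less RNA per cell cannot be told apart.

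**Figure D1:**
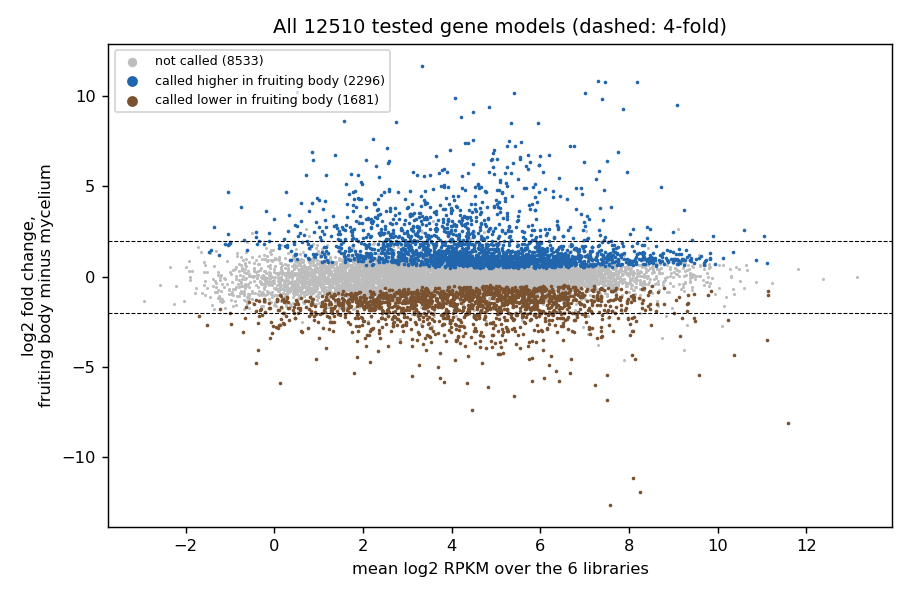
Log2 fold change of fruiting body over mycelium (vertical) against mean log2 RPKM over the 6 libraries (horizontal), 1 point per tested model, coloured by call. The 2296 called rises and 1681 called falls spread over the whole range of levels, and changes of 64-fold or more are 59 rises and 8 falls.

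Single libraries gave different sizes of change. With replicate 1 as the lone fruiting body, 4866 models were called (38.8% of those tested in that fit), 709 of them at least 4-fold higher and 1002 at least 4-fold lower. With replicate 2 alone, which is also the comparison within 1 flowcell, 3524 were called (28%), 631 and 645 of them changed at least 4-fold. With replicate 3 alone 2553 were called (20.3%), 461 and 505 at least 4-fold. The lone library is assumed in these edgeR fits to vary like the other stages. Falls of at least 64-fold, 8 with all libraries, numbered 64, 49 and 13 with replicates 1, 2 and 3 alone. Rises of that size numbered 80, 66 and 24. Replicate 1 therefore showed the most large changes and replicate 3 the fewest, in each direction. The fits share the mycelium libraries.

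Leaving out replicate 3 raised the called models to 6099 (48.9%), of which 674 were at least 4-fold higher and 772 at least 4-fold lower. Leaving out replicate 1 or 2 gave 2637 (21.1%) and 2548 (20.4%). Without mycelium replicates 1, 2 and 3 the calls numbered 2592, 2511 and 2448. With the flowcell as a covariate they numbered 1244, and in that fit replicate 2 alone sets the level of the fruiting body.

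Some models changed by a similar amount in all 3 fruiting bodies. Those named here are the 2 rises and 2 falls with the largest F among 498 rises and 368 falls that were called, changed at least 4-fold, did not overlap between stages and reached a mean of 10 RPKM (reads relative to library size and to the length of the model) in the higher stage. This choice favours models in which replicate 3 lies with replicates 1 and 2, so that its place in them is a description. Model 2960315 (804 bp) stood at 14.2, 12.4 and 12.01 RPKM in mycelium replicates 1, 2 and 3. The fruiting bodies stood at 685 RPKM in replicate 1, 509.7 in replicate 2 and 513 in replicate 3. Its log2 fold change was 5.46 ± 0.24 (SE, edgeR adjusted p = 4e-05). The lowest fruiting body lay far above the highest mycelium, and replicate 3 lay level with replicate 2.

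Model 1040899 (877 bp) was barely read in mycelium, at 3.51, 2.60 and 3.18 RPKM, and stood at 323, 266 and 274 RPKM in the fruiting bodies. The mean rose from 3.1 ± 0.459 to 287 ± 30.9 RPKM (SD, n = 3 each), a log2 fold change of 6.54 ± 0.30 (SE, edgeR adjusted p = 4e-05). Replicate 3 lay between the other fruiting bodies. In young fruiting bodies the model was already at 351 and 212 RPKM, and model 2960315 at 516 and 567.5, which overlaps the fruiting bodies in each case.

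Model 2983435 (1564 bp) stood at 285, 398 and 199.7 RPKM in mycelium. In the fruiting bodies it was at 1.14 RPKM in replicate 1, 1.68 in replicate 2 and 2.34 in replicate 3. Replicate 3 was the highest fruiting body, yet still far under every mycelium library. The log2 fold change was -7.41 ± 0.41 (SE, edgeR adjusted p = 6.25e-05).

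Model 3008814 (618 bp) fell less far but with little spread, from 421, 432 and 399.9 RPKM in mycelium to 47, 42.8 and 48.1 RPKM in the fruiting bodies. The means were 418 ± 16.4 and 46 ± 2.8 RPKM (SD, n = 3 each), and the log2 fold change was -3.18 ± 0.18 (SE, edgeR adjusted p = 6.79e-05). Of its reads 11.2% also fit another model, so its level is less sure than that of the other named models. With those reads included the log2 fold change was -3.22.

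The most abundant model of each stage gave way in the other. The leading model of the mycelium (580 bp) stood at 64450, 87980 and 19020 RPKM there and at 261, 175 and 175 RPKM in the fruiting bodies, where it ranked 720th. In mycelium replicate 2 it took 4.74% of all unique reads. Its log2 fold change was -8.13 ± 0.78 (SE, edgeR adjusted p = 0.000209), and the mycelium libraries themselves differed by more than 4-fold. The leading model of the fruiting body (375 bp) stood at 38.1, 17.4 and 10.4 RPKM in mycelium, where it ranked 6117th,. In the fruiting bodies it reached 23270 RPKM in replicate 1, 16710 in replicate 2 and 9132 in replicate 3. Its log2 fold change was 9.55 ± 0.81 (SE, edgeR adjusted p = 0.000143). Replicate 3 was the lowest of the fruiting bodies and lay above every mycelium library.

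**Figure D2:**
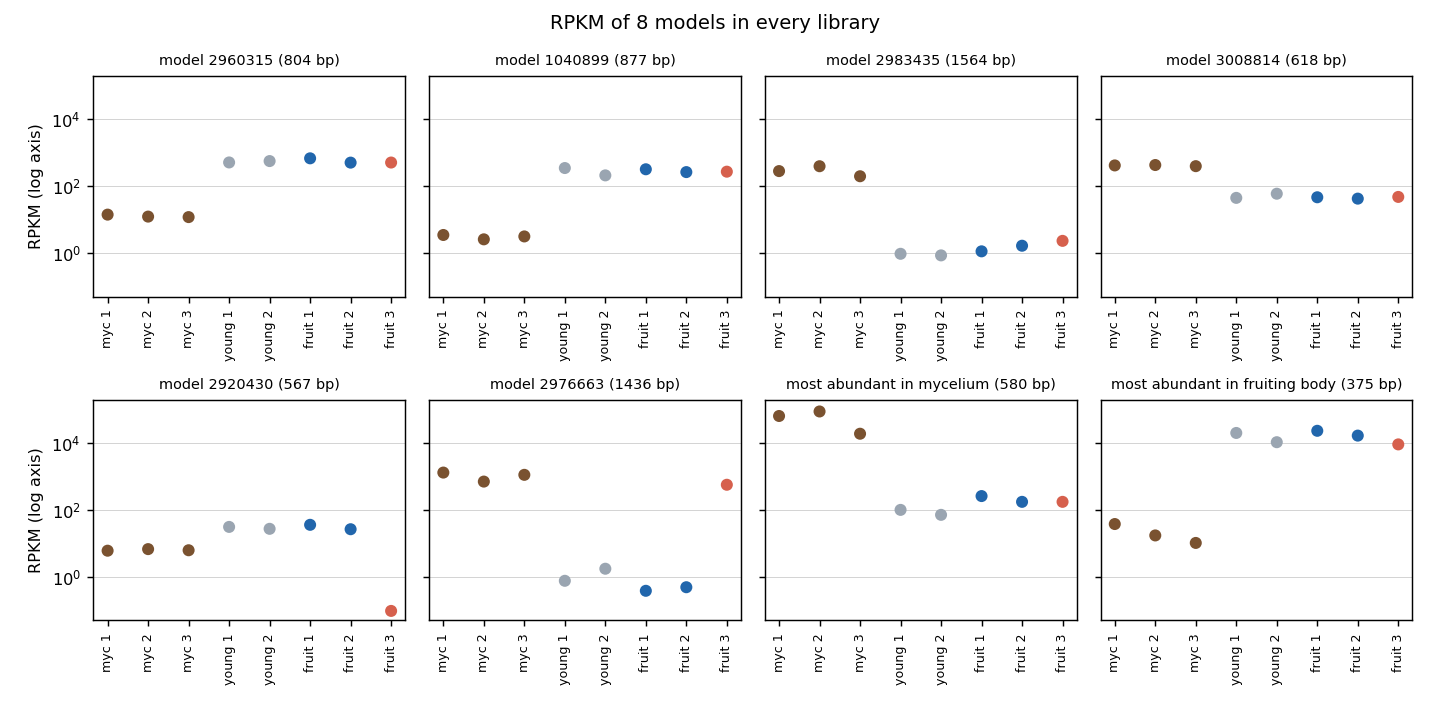
RPKM on a log axis of 8 models in each library (mycelium brown, young fruiting body grey, fruiting body replicates 1 and 2 blue, replicate 3 red). In models 2960315, 1040899, 2983435 and 3008814, chosen for small spread, replicate 3 lies with replicates 1 and 2, and in model 2976663, chosen for a large gap, it stands at 568 RPKM beside 0.385 and 0.492.

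The lists of the 100 most abundant models by mean RPKM shared 35 models, 35% of each list. Among the 100 leading models of the fruiting body, 62 were called higher than in mycelium, 31 of them at least 4-fold, and 2 were called lower. Over all tested models 18.4% were called higher, 4.67% at least 4-fold, and 13.4% lower. Among the 100 leading models of the mycelium, 36 were called lower, 23 of them at least 4-fold, and 6 higher, beside 13.4, 3.5 and 18.4% of all tested models. Levels chose these lists and also make the fold changes, so the counts describe them. Of the 35 shared models, 27 were not called. The 100 leading mycelial models took 26, 23.9 and 18.5% of unique reads in the mycelium. In the fruiting bodies they took 6.02% in replicate 1, 6.57% in replicate 2 and 10.5% in replicate 3. The 100 leading fruiting body models took 7.17, 6.31 and 7.41% in mycelium and 20, 17.8 and 12.4% in the fruiting bodies. Library by library, the 100 leading models of replicate 3 held 48 to 50 of those of a mycelium library, those of replicate 1 held 22 to 30 and those of replicate 2 held 29 to 35.

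How far reads were concentrated on few models did not separate the stages. The 10 most abundant models took 13.2, 13.7 and 7.28% of unique reads in mycelium and 10.0, 7.95 and 4.95% in the fruiting bodies. The number of models that make up 50% of reads was 677, 731 and 906 in mycelium and 818, 886 and 1133 in the fruiting bodies. At least 1 RPKM was reached by 12199, 12013 and 12139 models in mycelium and by 11722, 11929 and 12172 in the fruiting bodies. The stages overlapped in each measure (exact two-sided permutation p = 0.3 for each, adjusted p = 0.4 over 4 measures, where 0.1 is the smallest that 3 against 3 allows). The fourth, models at or above 100 RPKM, numbered 1501 to 1648 in mycelium and 1486 to 1772 in fruiting bodies (exact permutation p = 0.6, adjusted 0.6).

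The shares of reads held by called rises and by called falls nevertheless differed strongly between the stages. Called models were 31.8% of those tested, and calls became commoner with level (below). The 584 models at least 4-fold higher took 0.84, 0.835 and 0.888% of unique reads in mycelium. Their share in the fruiting bodies was 21.8% in replicate 1, 18.3% in replicate 2 and 9.35% in replicate 3. For the 438 models with falls of at least 4-fold the share was 16.7, 18.1 and 11.8% in mycelium and 0.863, 1.24 and 1.57% in the fruiting bodies. All rises together took 33.2 ± 7.21% of reads in fruiting bodies and all falls 28.6 ± 2.7% in mycelium (SD, n = 3 each). Models that were not called took 62.5 ± 2.01 and 59.5 ± 5.83% (SD, n = 3 each). The large falls were dominated by a few models, as 6 of 438 held 50% of that set's reads in mycelium, while 18 of 584 did so for the large rises in fruiting bodies. The libraries that chose these sets also give the shares, so they are a description.

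Replicate 3 can be read in sets chosen without it. The 674 models at least 4-fold higher in replicates 1 and 2 took 23.8 and 20.4% of reads in those libraries, 1.15 to 1.37% in mycelium and 9.6% in replicate 3. The 772 models with a fall of at least 4-fold took 1.14 and 1.55% of reads in replicates 1 and 2, 19.0 to 26.7% in mycelium and 7.16% in replicate 3. In both sets replicate 3 lay between the mycelium and the other fruiting bodies. The young fruiting bodies stood at 21.2 and 15.8% for the higher set and 1.4 and 1.87% for the lower. In each set young replicate 1 lay between fruiting body replicates 1 and 2. Young replicate 2 lay between that pair and fruiting body replicate 3.

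**Figure D3:**
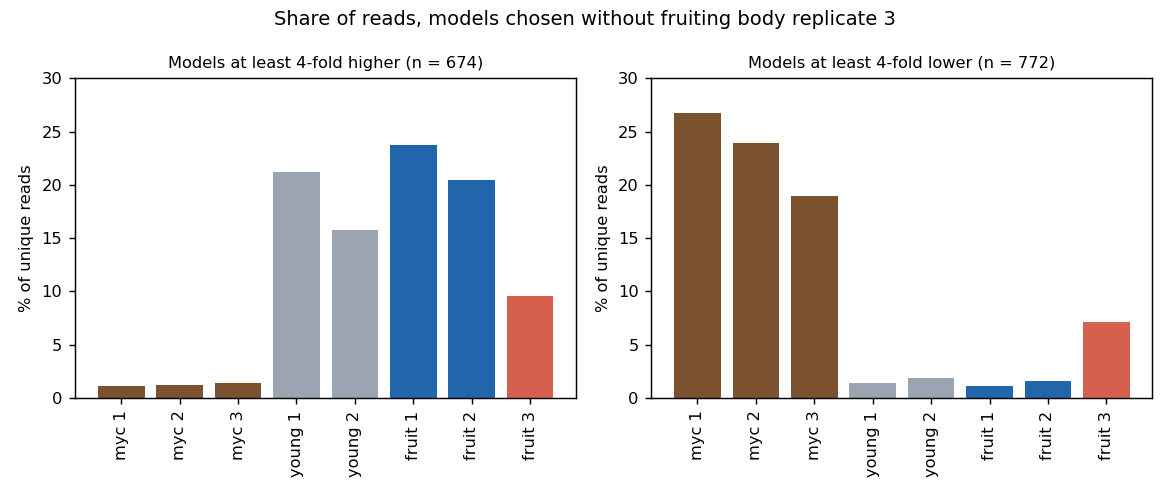
Share of unique reads (percent) in each library for the 674 models at least 4-fold higher (left) and the 772 models at least 4-fold lower (right) when fruiting body replicate 3 is left out of the choice. Replicate 3 stands at 9.6 and 7.16%, between the mycelium and replicates 1 and 2 in each set.

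The place of replicate 3 differed between rises and falls. For the 674 rises the median log2 difference from the mycelium mean was 3.16 in replicate 1, 2.97 in replicate 2 and 2.15 in replicate 3. Replicate 3 lay at a median of 69.9% of the log2 distance from mycelium to the other fruiting bodies (quartiles 49.4 and 81.9%). For the 772 falls the medians were -2.89, -2.43 and -1.36, and replicate 3 lay at a median of 49.4% of the distance (quartiles 21.2 and 77.9%). In 94 of the falls replicate 3 lay on the far side of the mycelium mean, and in 95 it lay beyond replicates 1 and 2. For rises these numbers were 34 and 51. A library left out of a choice is read in models picked for large changes in the others, so replicates 1 and 2 were left out in the same way. Replicate 1 then lay at medians of 116% (523 rises) and 113% (390 falls) of the distance to the remaining fruiting bodies, and replicate 2 at 108% (548 rises) and 96.6% (387 falls). In these cases the remaining pair includes replicate 3, which lies towards mycelium and shortens the distance. The values are therefore not a like-for-like gauge of what the choice itself adds. These distances all start from the same mycelium libraries.

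The strongest changes parted most clearly. Among 69 models with a mean rise of at least 64-fold in replicates 1 and 2, replicate 3 was at least 64-fold above mycelium in 23, between 4- and 64-fold in 45, and within 4-fold of mycelium in 1. Among 37 models with a fall of at least 64-fold, it was at least 64-fold below mycelium in 5, between 4- and 64-fold in 13, and within 4-fold of the mycelium mean in 19. Replicate 3 thus kept some mycelial models at about their mycelial level while others were as low as in the other fruiting bodies. Its median place among rises was 61.5% of the distance for changes of 4- to 8-fold, 67.6% for 8- to 16-fold, 73.8% for 16- to 64-fold and 80.6% for 64-fold or more (308, 153, 131 and 69 models). Among falls it was 48.4, 55 and 56% for the first 3 of these classes (452, 143 and 85 models), and the last class alone departed, at 20.1% (37 models).

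**Figure D4:**
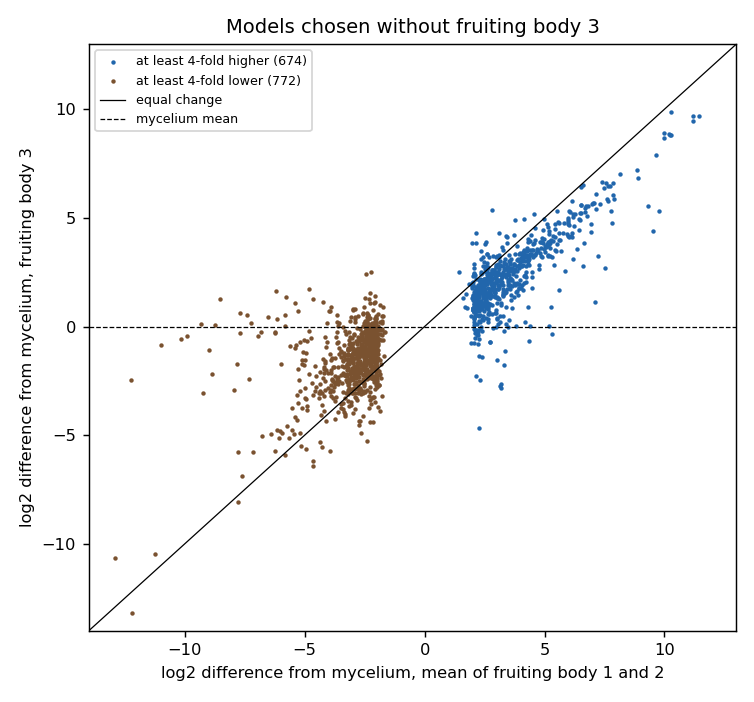
Log2 difference from the mycelium mean in fruiting body replicate 3 (vertical) against the mean of replicates 1 and 2 (horizontal), for 674 rises (blue) and 772 falls (brown) chosen without replicate 3, with the line of equal change and the mycelium mean (dashed). Most rises lie under the line of equal change, and 19 of the 37 falls of at least 64-fold lie within 4-fold of the mycelium mean.

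Models 2976663 and 2920430 show the extremes, chosen as the fall and the rise in which replicate 3 lay farthest towards, or past, mycelium. Model 2976663 (1436 bp) had 9 unique reads in replicate 1 and 17 in replicate 2, but 14915 in replicate 3. This is 0.385, 0.492 and 568 RPKM, beside 1313, 706.5 and 1124 RPKM in mycelium and 0.766 and 1.76 RPKM in young fruiting bodies. Without replicate 3 its log2 fold change was -11.19 ± 0.60 (SE, edgeR adjusted p = 6.12e-07), and with it -2.47 ± 1.99 (adjusted p = 0.374). With all libraries limma-voom gave -7.78 (adjusted p = 0.0265) and limma-trend on the deposited values -7.69 (adjusted p = 0.0411), so the call depends on the tool as well as on that library. It was the 61st most abundant model of the mycelium.

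Model 2920430 (567 bp) had 333 and 363 unique reads in replicates 1 and 2 and 1 in replicate 3. It stood at 6.08, 6.78 and 6.27 RPKM in mycelium and at 36.1, 26.6 and 0.0964 RPKM in fruiting bodies, so that replicate 3 was under the mycelium too. Its log2 fold change was 2.29 ± 0.23 without replicate 3 (SE, edgeR adjusted p = 3.81e-05) and 1.71 ± 1.08 with it (adjusted p = 0.255).

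Replicate 3 also held levels that lay outside both stages. It was at least 4-fold above each of the 5 other libraries compared in 23 models and at least 4-fold below each of them in 40. The other libraries were so placed in 0 to 7 models above and 0 to 11 below, of which the highest counts, 7 and 11, were those of fruiting body replicate 1. Replicate 1 was at least 2-fold below all 5 others in 274 models, replicate 3 in 249 and replicate 2 in 10. At least 2-fold above all others, replicate 3 led with 211 models, beside 50 in replicate 1, 34 in replicate 2 and 17 to 52 in the mycelium libraries. The flowcell of replicates 1 and 3 held no mycelium, and the part of flowcell in their place was not tested.

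Switches from near silence to abundance were few in number. In all, 16 called models stayed under 1 RPKM in all mycelium libraries and reached 10 RPKM in each fruiting body. They ranged from 270 to 1536 bp in length, with means of 14.5 to 509 RPKM in the fruiting body, and 15 of them reached 10 RPKM in the young fruiting bodies as well. Their median level was 33.7 RPKM in replicate 1, 28.8 in replicate 2 and 12.5 in replicate 3, and replicate 3 was the lowest fruiting body for 15 of 16. None of the 16 had 0 reads in all mycelium libraries together.

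The opposite switch was met by 1 called model with all libraries, and by 10 without replicate 3. Library by library, and without regard to calls, 19 models that were at or above 10 RPKM in all mycelium libraries were below 1 RPKM in replicate 1, 12 in replicate 2 and 7 in replicate 3. The rises from silence numbered 27, 26 and 17 in the same order. The rises start from only 250 tested models under 1 RPKM in all mycelium libraries, and the falls from the 7908 that reached 10 RPKM in all of them. The 250 leave out the 1092 models that were not tested. A model silent in mycelium could also pass the filter on low counts through its fruiting body reads. These starting numbers are therefore not alike, and how rare each switch is among eligible models was not tested.

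Calls differed with length mainly at the ends of the range. Of 620 models under 400 bp, 171 were called higher and 61 lower (37.4%, exact 95% binomial interval 33.6 to 41.4%), whereas of 646 models of 3200 bp or more 90 were higher and 66 lower (24.1%, interval 20.9 to 27.6%). The classes between were called at 31.1% (400 to 800 bp), 32.9% (800 to 1600 bp) and 30.8% (1600 to 3200 bp), close to the 31.8% of all tested models. The intervals treat models as independent and serve as a description. Changes of at least 4-fold were called in 12.6% of the shortest class, 9.05, 8.56 and 6.96% of the classes between, and 3.72% of the longest. Longer models carry more reads, with a median of 2322 reads per library in the longest class against 215 in the shortest. Among models at 10 to 100 RPKM the shares called were 36.3, 36.5, 35.5, 31 and 21.4% from the shortest to the longest class, so that the longest stood apart and the shortest did not. The shares there with a called 4-fold change were 10.8, 10.8, 8.27, 6.23 and 2.08% in the same order.

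Calls became commoner with level. They covered 13.2% of 317 models with a mean under 1 RPKM, 24.6% of 3332 at 1 to 10, 33.2% of 7213 at 10 to 100, 43.4% of 1584 at 100 to 1000, and 51.6% of 64 at 1000 RPKM or more. Read depth rises along these classes, from a median of 13 reads per library in the lowest to 31390 in the highest, and its part in the trend was not tested. In the lowest classes falls outnumbered rises, with 23 against 19 below 1 RPKM and 444 against 376 at 1 to 10 RPKM. At 10 to 100 RPKM rises outnumbered falls, with 1460 against 935. This split by level is that of the fit with all libraries, and other fits were not split so. Over all levels rises were 57.7% of the calls in that fit. They were 53.3% with upper-quartile factors and 49.5% without fruiting body replicate 3. Of the 64 most abundant models, 14 were at least 4-fold higher in fruiting bodies and 11 at least 4-fold lower, beside 4.67 and 3.5% of all tested models. Level chose this class and also enters the fold, so its counts are a description.

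**Figure D5:**
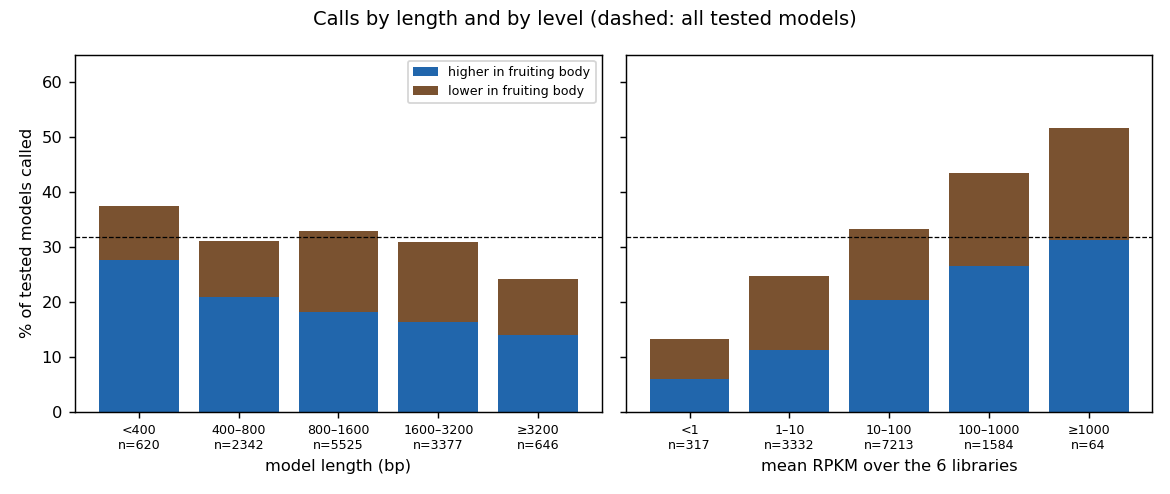
Percent of tested models called, by model length (left) and by mean RPKM over the 6 libraries (right), split into models higher (blue) and lower (brown) in fruiting body, with the number of models under each bar. The dashed line marks the 31.8% of all tested models, and the bars run from 37.4% for the shortest to 24.1% for the longest models and from 13.2 to 51.6% with level.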

How the data were processed

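Per the file headers, the deposited tables of each sample hold unique gene read counts and total gene read counts for 13602 models, with model lengths, and each model is its own reference sequence. Their RPKM column is 0 throughout and was not used. The deposited matrix of log2 values (12746 models) tracks log2 of total counts over length within a library (99% within 0.00487, 8756 models of at least 100 reads), and was taken as the authors' log2 RPKM. Tools named in the submitters' processing notes are limma 3.18.13, edgeR 3.4.2 and R 3.0.2. Aligner and genome release are not given in the sources used here. The TruSeq v2 kit does not mark strand, so overlapping antisense models cannot be told apart.

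Unique reads of all 8 libraries entered 1 fit in R 4.3.3 with edgeR 4.0.16 (filterByExpr, TMM, robust quasi-likelihood). Stage was the only term, and the contrast was fruiting body minus mycelium. The code was also run on simulated counts with planted changes. No simulated library stood apart as fruiting body replicate 3 does, so that run does not gauge the fit on these data. The SE is the absolute log2 fold change over the square root of F. Models not tested held at most 0.00749% of unique reads in a library. A count of 0 allows 3 reads, or 0.0837 to 0.186 CPM (counting error only). Log2 levels used a prior count of 2. No replicate pair agreed within sampling noise (chi-square 69.2 to 322 per degree of freedom).

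Named models were those with the 2 largest F in each direction (at least 4-fold, no overlap, at least 10 RPKM), the rise and the fall in which replicate 3 lay farthest from replicates 1 and 2 towards mycelium, and the most abundant model of each stage. Alternatives were DESeq2 1.42.0, limma-voom and limma-trend (limma 3.58.1), other scaling, filters and samples. The test against 2-fold, the counts of libraries outside the range and the distances of left-out libraries were added after seeing the data. Members, sets and lists were chosen with earlier results of these data known. No gene list was used, as the IDs carry no product names.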

Additional observations from a re-analysis of the deposited data

Results flagged for a closer look

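Reads that map to several models lie outside the comparison of unique reads. Unique reads were 0 throughout the series for 698 models, and 61 of these exceeded 3 total reads in at least 1 library. Together they took 1164, 992 and 1044 CPM of total reads in fruiting body replicates 1, 2 and 3, above the 749, 793.5 and 838 CPM of mycelium replicates 1, 2 and 3. The difference was not tested.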

How the results depend on the processing

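Alternatives that keep every library of the 2 stages, or a single fruiting body, gave 105 counts, of which 83 lay within 1.5 times that of the fit with all libraries. No model called with all libraries was called the other way in an alternative. A fit on only the 6 libraries compared, without the young fruiting bodies, called 3401 models, 1843 higher and 1558 lower. With the replicate number as a block, on the same 6 libraries, 2176 models were called, 1056 higher and 1120 lower. The labels do not say that a replicate number pairs samples, so the numbers were not taken to do so. Deviations of same-numbered libraries from their stage means had correlations of -0.278, 0.193 and -0.102 across models. Deviations within a stage depend on one another and replicate 3 stands apart, so these values cannot decide whether samples are paired. With the flowcell covariate 1244 models were called, 833 higher and 411 lower, 277 of these at least 4-fold lower. Against a 2-fold change 1015 were called, 595 and 420. The cause of these shifts was not tested, except that this last test is stricter by construction. With replicate 3 alone 2553 were called, 1294 of them higher, and with replicate 1 alone 1002 were at least 4-fold lower. Models silent in mycelium and abundant in fruiting bodies numbered 27 and 26 with replicates 1 and 2 alone, 7 at limits of 0.5 and 5 RPKM and 6 at limits of 1 and 20 RPKM. The opposite switch numbered 17, 11 and 5 with replicates 1, 2 and 3 alone and 0 at both other limits.

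When single libraries were left out, calls ranged from 2448 to 6099, rises from 1326 to 3020 and falls from 1022 to 3079. At least 4-fold rises ranged from 501 to 674, at least 4-fold falls from 387 to 772, switches on from 15 to 24 and switches off from 1 to 10. Each highest value was that without fruiting body replicate 3. Of the 3977 calls, 2432 to 3888 were kept. Without replicate 3 the fruiting body means were 852 models for 50% of reads, 8.98% for the 10 most abundant models and 11830 models at 1 RPKM. Sets of at least 4-fold change chosen without it took 1.24% (rises) and 23.2% (falls) of mycelium reads, and the falls 3.28% of fruiting body reads. Model 2920430 changed sign with limma-voom (log2 fold change -0.27), limma-trend (-0.31) and replicate 3 alone (-5.99). The fall of model 2976663 was also larger in 2 further fits that keep replicate 3. Its log2 fold change was -9.18 with the replicate block, without young fruiting bodies (edgeR adjusted p = 0.101). With the flowcell covariate on all libraries it was -11.04 (edgeR adjusted p = 0.107). Models 2960315, 1040899, 2983435 and 3008814 stayed called in all alternatives with more than 1 fruiting body library (adjusted p at most 0.002 in edgeR, DESeq2 and limma). Each kept its direction with every fruiting body alone. They were chosen for a large F in these same libraries, so this was largely set by the choice.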
